A study of Homo sapiens with 16 samples.

Results

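Expression of 4 genes of the plasminogen activation system was examined in 2 established lines of human non-small cell lung cancer, A549 and H2023: PLAU, PLAT, PLAUR and SERPINE2. They were found by symbol among the 18227 genes of the deposited tables, and all 4 were present. Plasminogen is a circulating proenzyme that is cut to plasmin, a protease that dissolves fibrin and degrades extracellular matrix. PLAU encodes urokinase and PLAT encodes tissue-type plasminogen activator, the proteases that make this cut. PLAUR encodes the urokinase receptor, which is held on the cell surface by a lipid anchor and concentrates urokinase there. SERPINE2 encodes protease nexin-1, a secreted serpin that traps thrombin, plasmin and both activators. In carcinomas of the lung, urokinase and its receptor are known for pericellular proteolysis at the edge of invading cells.

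RNA sequencing covered 16 libraries in 8 groups of 2. In each line, cells with a ZC3H12A knockout were set beside wild-type cells, after 3 days in normal culture or 7 days in a stem-cell-enriched culture, the oncosphere condition. ZC3H12A encodes Regnase-1, an endonuclease that cleaves mRNAs. No other treatment is named, culture type and days in culture changed together, and each line has 1 knockout clone per the sample titles, so that the edit and other properties of that clone cannot be told apart. Nothing in the labels says that the 2 libraries of a group came from separate cultures, so p-values measure the spread between these libraries, which may be technical.

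ZC3H12A mRNA did not follow the labels. In TPM, which scales transcript abundance to a fixed library sum, it stood at 30.72 and 34.88 in wild-type A549 normal culture and at 16.9 and 19.93 in the libraries labelled knockout. The latter were the higher in the other 3 comparisons, most in H2023 oncospheres, with 94.61 and 69.18 against 32.54 and 26.41 TPM. TPM does not tell a shortened or frameshifted transcript from an intact one, so the label is used here as a name only. All 6 epithelial markers listed (EPCAM, CDH1 and 4 keratins) were measured, and they summed to between 2571 and 13032 TPM in every library. That sum in A549 normal culture was 9175 and 9346 TPM in wild type and between 2571 and 5009 TPM with the knockout label. There KRT8 was at 3626 and 3569 against 1259 and 765 TPM, and KRT18 at 3749 and 3995 against 1242 and 666 TPM. KRT7 overlapped, while EPCAM, KRT19 and CDH1 were lower with the knockout label without overlap. EPCAM was low in both genotypes of this culture, between 0.37 and 1.98 TPM, and KRT19 lay between 0.29 and 8.33 TPM. The part of these markers in the results below was not tested. Markers of fibroblasts summed to at most 10.1 TPM over the 3 of 5 measured, and PECAM1, the 1 of 4 endothelial markers measured, reached 2.76 TPM. Of 5 leukocyte markers, LAPTM5 stayed between 0 and 0.77 TPM, while CD68, which carcinoma cells can also express, lay between 28.7 and 178.9 TPM. Mitochondrially encoded genes took between 10.3% and 18.7% of TPM in normal culture and between 19.5% and 25.6% in oncospheres.

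Start-site sequences are shown for PLAU, PLAUR and SERPINE2, because all 4 genes rose in A549 oncospheres labelled knockout and RefSeq windows of these 3 were used. No PLAT window was used here. They were read from RefSeq on GRCh38.p14 as the 250 bases before an annotated start, 5′ to 3′ on the strand of the gene. Capitals mark matches to 4 motifs searched on both strands over the window from 250 bases before to 50 bases after the start: AP-1 as TGANTCA, Sp1 as GGGCGG, NF-kB as GGGNNTTCC and the E-box CACGTG. The positions are chr10:73910882-73911131 on the + strand for the second PLAU window, chr19:43670170-43670419 on the - strand for PLAUR, and chr2:224031479-224031728 and chr2:224038641-224038890 on the - strand for SERPINE2.
PLAU: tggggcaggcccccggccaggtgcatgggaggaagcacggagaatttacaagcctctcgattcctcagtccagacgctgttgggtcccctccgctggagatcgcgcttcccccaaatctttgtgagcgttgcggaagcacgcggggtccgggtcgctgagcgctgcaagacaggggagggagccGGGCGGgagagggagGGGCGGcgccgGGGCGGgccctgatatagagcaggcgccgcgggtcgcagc
PLAUR: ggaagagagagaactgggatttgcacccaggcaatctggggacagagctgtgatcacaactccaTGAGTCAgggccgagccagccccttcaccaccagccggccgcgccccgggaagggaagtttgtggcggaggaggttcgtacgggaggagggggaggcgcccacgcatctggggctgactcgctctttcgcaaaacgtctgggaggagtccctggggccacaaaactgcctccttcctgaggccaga
SERPINE2, window 1: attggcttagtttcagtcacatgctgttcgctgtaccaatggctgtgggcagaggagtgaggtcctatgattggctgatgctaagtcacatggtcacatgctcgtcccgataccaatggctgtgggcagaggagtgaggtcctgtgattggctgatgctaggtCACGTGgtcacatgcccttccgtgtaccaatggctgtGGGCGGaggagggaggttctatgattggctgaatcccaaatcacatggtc
SERPINE2, window 2: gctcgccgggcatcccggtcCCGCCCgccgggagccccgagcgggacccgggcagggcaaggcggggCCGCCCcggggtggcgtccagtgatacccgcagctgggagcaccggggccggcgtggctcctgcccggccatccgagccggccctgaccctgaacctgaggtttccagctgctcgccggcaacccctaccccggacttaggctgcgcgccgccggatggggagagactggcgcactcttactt
The PLAU window held 3 Sp1 matches, with first bases at -66, -51 and -40 from the start, and 70.0% of the bases of its 300-base window were G or C. The PLAUR window held 1 AP-1 match, TGAGTCA, at -186. In SERPINE2 the first window held an E-box match at -87 and an Sp1 match at -50, and the second held Sp1 matches on the opposite strand at -230 and -183. A further PLAU window, chr10:73910360-73910609 on the + strand, held none of the 4 motifs. Over 35116 RefSeq windows of the same length, AP-1 was matched in 7.71%, Sp1 in 45.0%, NF-kB in 6.58% and the E-box in 7.26%. None of the 4 motifs was matched in all 3 genes. A match describes letters only and is not a measured binding site.

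PLAU, PLAUR and SERPINE2 were well expressed in every library, and PLAT was far lower. The mean of PLAU over the 16 libraries was above that of 91.5% of all genes, that of SERPINE2 above 89.4% and that of PLAUR above 87.2%, whereas PLAT was above 24.4%. Across libraries PLAU ran from 19.54 to 186.12 TPM with a median of 77.0, PLAUR from 17.14 to 203.8 with a median of 39.9, SERPINE2 from 24.91 to 143.82 with a median of 72.3, and PLAT from 0.15 to 4.45 with a median of 1.22. Group means differed most for PLAT, by 21.8-fold between highest and lowest, and least for SERPINE2, by 3.14-fold. For PLAUR the factor was 8.87 and for PLAU 7.24.

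**Figure D1:**
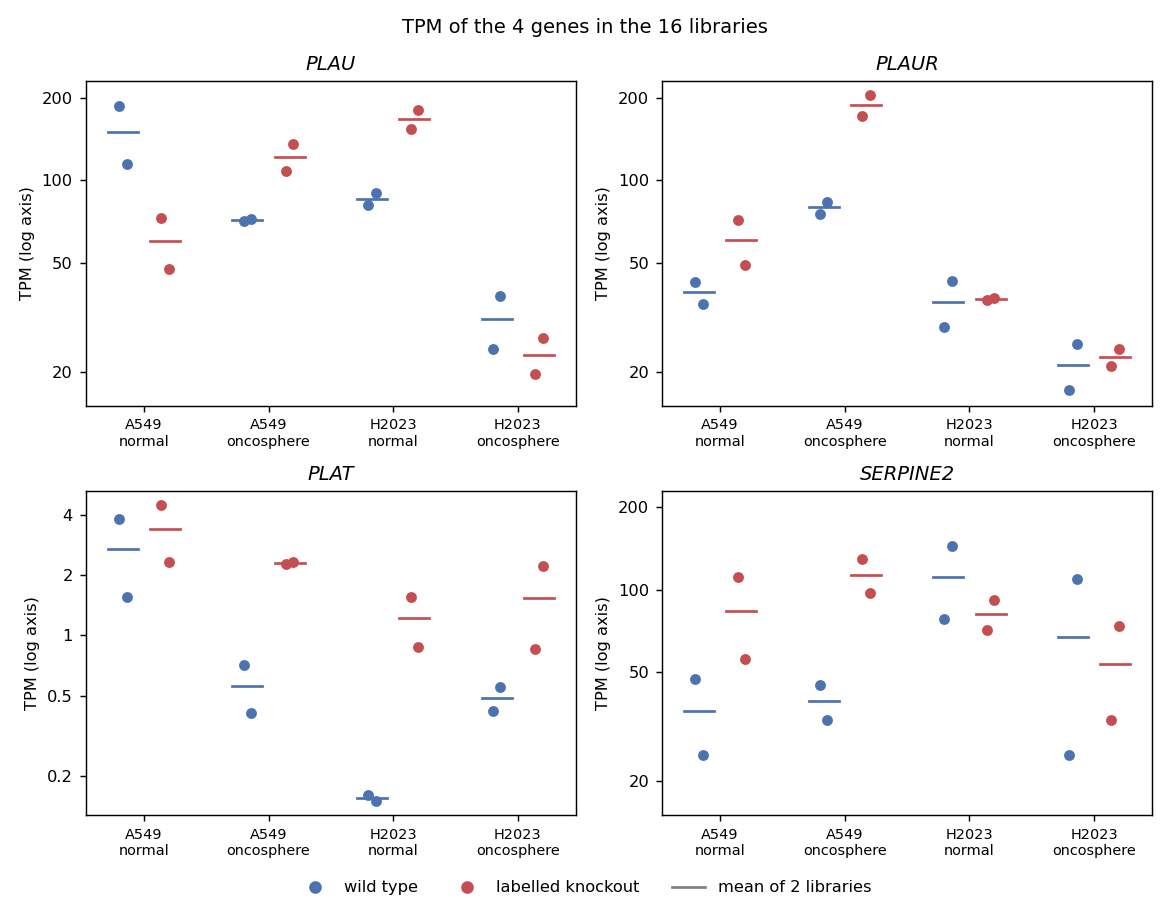
TPM of PLAU, PLAUR, PLAT and SERPINE2 on log axes for each line and culture, with 1 point per library (blue wild type, red labelled knockout) and a line at the mean of the 2 libraries. The red points of PLAU lie below the blue ones in A549 normal culture and above them in A549 oncospheres and H2023 normal culture.

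The first question was how each gene differed between libraries labelled knockout and wild type within a line and culture. It was tested with limma on log2(TPM + 1) over the 4 libraries of each comparison, with Benjamini-Hochberg adjustment over all genes and a threshold of 0.05. In A549 oncospheres all 4 genes rose, where 13.2% of all genes passed the test. In A549 normal culture none of the 4 passed, where 10.8% of genes did. In H2023 none passed in normal culture or in oncospheres, and there limma called 0% of genes in either, although 3314 and 2828 genes had an unadjusted p under 0.05. The median log2 fold change of the 4 genes was 0.44 in A549 normal culture, 1.16 in A549 oncospheres, 0.49 in H2023 normal culture and 0.01 in H2023 oncospheres, beside medians over all genes of -0.03, 0.03, 0.01 and 0.06. The authors' deposited tables, which hold fold changes and p-values of their own, called 2 of the 4 in A549 normal culture (22.1% of the genes with an adjusted p), 4 in A549 oncospheres (20.7%), 2 in H2023 normal culture (10.8%) and 0 in H2023 oncospheres (5.07%). In bulk RNA, fewer cells that express a gene and less RNA of it per cell cannot be told apart. Whether groups overlap is given below as a description only, because 2 libraries against 2 often separate without any effect.

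PLAU (ENSG00000122861) codes for protein and spans positions 73909177 to 73917497 of chromosome 10 in GRCh38, + strand. It lies over 7529 bases of C10orf55, a gene of the opposite strand that was listed at 0.17 to 1.93 TPM, and the sources used here do not say whether counting used strand. PLAU stood at 186.12 and 114.54 TPM in wild-type A549 normal culture, and its libraries labelled knockout were at 72.53 and 47.23 TPM. Both wild-type libraries lay above both others. The log2 fold change was -1.30 (standard error 0.30), and limma's adjusted p of 0.0537 just missed the threshold. In the authors' deposited table PLAU fell by 1.26 on the log2 scale, with a standard error of 0.46 and an adjusted p of 0.0347.

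In A549 oncospheres the order was the other way. PLAU was at 71.21 and 71.94 TPM in the wild-type libraries, which nearly coincided, and at 107.69 and 135.41 TPM in those labelled knockout, without overlap. It rose by 0.75 on the log2 scale (standard error 0.13, limma adjusted p = 0.0261). The authors' deposited table gave a rise of 0.73 with an adjusted p of 1.72e-04. When limma took its spread from all 8 A549 libraries, the adjusted p was 0.0820, the highest of the alternatives that kept all libraries.

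In H2023 the pattern by culture was reversed. In normal culture PLAU was at 81.41 and 89.86 TPM in the wild-type libraries and at 153.49 and 180.59 TPM in those labelled knockout, and the groups did not overlap. The log2 fold change of 0.95 (standard error 0.11) had a limma adjusted p of 0.123, in a comparison in which the smallest adjusted p of any gene was 0.102. In the authors' deposited table PLAU rose by 0.96 (standard error 0.15, adjusted p = 5.08e-09). In H2023 oncospheres PLAU was low in all libraries, at 24.28 and 37.87 TPM in wild type and 19.54 and 26.62 TPM in those labelled knockout, which overlapped. Its log2 fold change was -0.40 (standard error 0.29, limma adjusted p = 0.553).

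These shifts of PLAU with culture and line were tested directly, from the differences between the log2 fold changes of the authors' deposited tables. The difference between A549 oncospheres and A549 normal culture was 1.98 (standard error 0.49, adjusted p = 0.00197, 8.31% of genes called). Between H2023 oncospheres and H2023 normal culture it was -1.51 (standard error 0.34, adjusted p = 0.00387, 0.39% called). Between H2023 and A549 it was 2.22 in normal culture (standard error 0.49, adjusted p = 1.17e-04, 15.3% called) and -1.27 in oncospheres (standard error 0.35, adjusted p = 0.00366, 12.9% called). PLAU was thus called in all 4 difference tests, but these share the same 4 fold changes and are not independent of each other. The sign of the difference was opposite in the 2 lines and in the 2 cultures, which restates the same values. As an interaction in limma, the difference was 2.05 between the A549 cultures (adjusted p = 0.0234) and 2.26 between lines in normal culture (adjusted p = 0.0115). These interactions called 6.65% and 12.3% of all genes. The limma difference was -1.14 between lines in oncospheres (adjusted p = 0.0729, 9.85% of genes called) and -1.35 between the H2023 cultures (adjusted p = 0.587). In that last contrast limma called 0 of 18227 genes, with a smallest adjusted p of 0.193 and 1294 genes at an unadjusted p under 0.05.

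PLAT (ENSG00000104368), the other activator, codes for protein and spans positions 42175233 to 42207724 of chromosome 8 in GRCh38, - strand. Wild-type A549 in normal culture had 3.82 and 1.56 TPM, and the libraries labelled knockout had 4.45 and 2.31 TPM. The 2 groups overlapped, and the log2 fold change of 0.27 (standard error 0.40) had a limma adjusted p of 0.679. In A549 oncospheres it was at 0.71 and 0.41 TPM in the wild-type libraries and 2.28 and 2.33 TPM in those labelled knockout. Both of the latter were above both wild-type libraries, and PLAT rose by 1.09 (standard error 0.18, limma adjusted p = 0.0198). With the spread of all 8 A549 libraries the adjusted p was 0.0581, the highest of the alternatives that kept all libraries.

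PLAT had its lowest values in wild-type H2023 normal culture, 0.16 and 0.15 TPM, against 1.56 and 0.87 TPM with the knockout label. In H2023 oncospheres the wild-type libraries were at 0.42 and 0.55 TPM and those labelled knockout at 0.85 and 2.22 TPM. Neither pair of groups overlapped, but limma's adjusted p was 0.167 for a log2 fold change of 0.92 (standard error 0.18) in normal culture and 0.367 for 0.72 (standard error 0.30) in oncospheres. Adding 1 TPM understates the change of so low a gene. In the authors' deposited tables, the log2 fold change of PLAT was 0.71 in A549 normal culture (adjusted p = 0.279), 1.87 in A549 oncospheres (adjusted p = 0.00341), 2.34 in H2023 normal culture (adjusted p = 0.0204) and 1.68 in H2023 oncospheres (adjusted p = 0.163). Their mean normalized counts of PLAT were between 22.4 and 95.8, compared with 975 to 4196 for PLAU. No difference of PLAT effects between cultures or lines passed the test, with adjusted p-values from 0.224 to 1.00.

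PLAUR (ENSG00000011422), the receptor, codes for protein and spans positions 43646095 to 43670547 of chromosome 19 in GRCh38, - strand. Wild-type A549 in normal culture had 42.64 and 35.22 TPM, and the libraries labelled knockout had 71.64 and 49.18 TPM. The groups did not overlap. The log2 fold change of 0.60 (standard error 0.20) had a limma adjusted p of 0.119, while PLAUR rose by 0.66 in the authors' deposited table (standard error 0.23, adjusted p = 0.0197). In A549 oncospheres the levels were 75.47 and 83.52 TPM in the wild-type libraries and 171.41 and 203.8 TPM in those labelled knockout, the highest of the series for this gene. PLAUR rose by 1.22 there (standard error 0.13, limma adjusted p = 0.00636), and by 1.20 in the authors' deposited table (adjusted p = 1.18e-10).

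In H2023 no difference in PLAUR passed the test. It was at 29 and 42.79 TPM in the wild-type libraries and 36.52 and 37.16 TPM in those labelled knockout in normal culture, and at 17.14 and 25.17 against 20.9 and 24.27 TPM in oncospheres. In both cultures the values of the libraries labelled knockout lay within the range of the wild-type libraries. The log2 fold changes were 0.06 (standard error 0.21, limma adjusted p = 0.904) and 0.11 (standard error 0.23, adjusted p = 0.848). The PLAUR effect in oncospheres differed between the lines by -1.20, H2023 minus A549 (standard error 0.37, adjusted p = 0.0137), from the authors' deposited fold changes. In normal culture that difference was -0.60 (adjusted p = 0.202), and between the A549 cultures it was 0.54 (adjusted p = 0.289).

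SERPINE2 (ENSG00000135919), the inhibitor, codes for protein and spans positions 223975112 to 224039319 of chromosome 2 in GRCh38, - strand. Wild-type A549 in normal culture had 47.08 and 24.91 TPM, and the libraries labelled knockout had 111.33 and 55.75 TPM. The groups did not overlap, but libraries of a group lay far apart, and the log2 fold change of 1.18 (standard error 0.42) had a limma adjusted p of 0.130. In the authors' deposited table it was 1.32 (adjusted p = 0.124). In A549 oncospheres SERPINE2 was at 45.02 and 33.35 TPM in the wild-type libraries and 129.13 and 96.89 TPM in those labelled knockout, and it rose by 1.51 (standard error 0.20, limma adjusted p = 0.0124). On log2(TPM + 1) this was the largest fold change of the 4 genes in that comparison. The authors' deposited table gave SERPINE2 a rise of 1.52 with an adjusted p of 8.55e-11, and there the rise of PLAT was larger, at 1.87.

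In H2023 SERPINE2 had the widest spread between replicates. In normal culture it was at 77.82 and 143.82 TPM in the wild-type libraries and 71.18 and 91.83 TPM in those labelled knockout. In oncospheres it was at 24.97 and 109.7 TPM in wild type and 33.54 and 73.42 TPM in those labelled knockout. The groups overlapped in both cultures, and the log2 fold changes were -0.38 (standard error 0.34, limma adjusted p = 0.586) and -0.08 (standard error 0.85, adjusted p = 0.978). The last of these standard errors was the largest of the 4 genes in any of these comparisons. The difference of effects between the lines was -1.73 in normal culture (adjusted p = 0.149) and -1.93 in oncospheres (adjusted p = 0.305), from the authors' deposited fold changes.

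**Figure D2:**
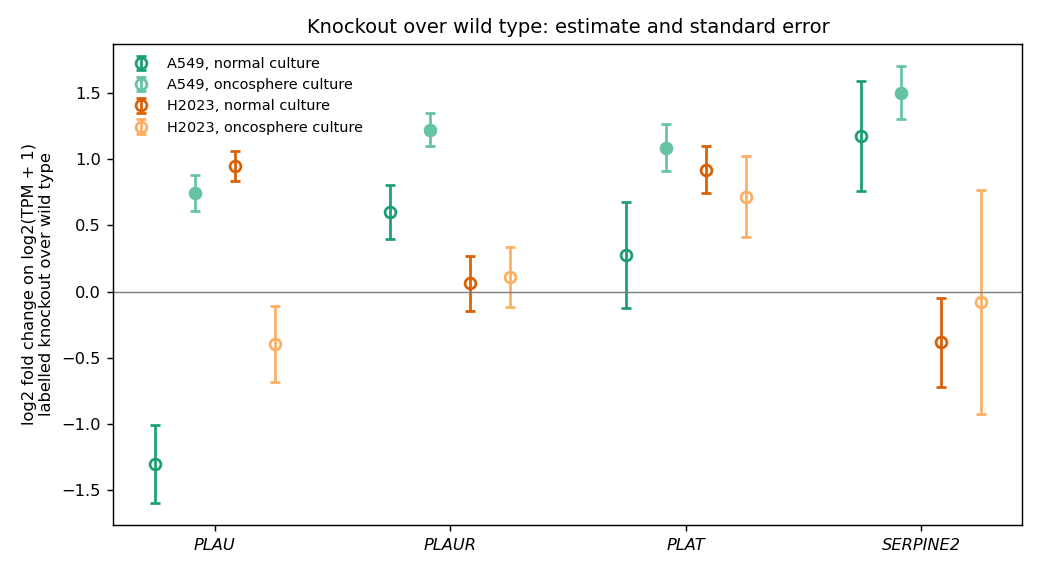
Log2 fold change on log2(TPM + 1) of the libraries labelled knockout over wild type for each gene, with bars of 1 standard error from limma, by line and culture. Filled points have a limma adjusted p under 0.05, which holds for all 4 genes in A549 oncospheres and for none elsewhere.

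Leaving out 1 library of A549 oncospheres at a time gave log2 fold changes from 0.58 for PLAU to 1.72 for SERPINE2, all positive. With 3 libraries limma called 38 of all genes without the first library labelled knockout and 0 without any of the others, so the loss of the calls for the 4 genes (adjusted p from 0.0702 to 0.166) says nothing about their stability. CD68 and LAPTM5 together were higher in the wild-type libraries of this comparison, at 118 to 179 TPM against 30.0 to 45.3 TPM. The epithelial sum overlapped, at 6666 to 7544 against 5659 to 7825 TPM, as did KRT8 and KRT18, its largest parts. Other epithelial markers separated the genotypes. EPCAM dropped from 9.4 and 7.94 to 0.82 and 1.03 TPM with the knockout label. KRT19 dropped from 46.81 and 101.25 to 3.29 and 5.92 TPM, and KRT7 from 1436 and 974 to 664 and 630 TPM. CDH1 went the other way, from 73.1 and 62.42 up to 84.49 and 79.02 TPM. The part of all these markers in the differences of the 4 genes was not tested.

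The second question was how the levels differed between oncospheres and normal culture within a line and genotype. TPM is scaled within each library, but the cultures come from separate tables and share a spread estimated over the 8 libraries of a line. In wild-type A549, PLAUR rose by 1.02 in oncospheres (standard error 0.19, limma adjusted p = 0.00342), while PLAU fell by 1.02 (standard error 0.26, adjusted p = 0.0149) and PLAT fell by 1.18 (standard error 0.34, adjusted p = 0.0247). SERPINE2 was 0.17 higher (adjusted p = 0.746). Receptor and activators thus moved in opposite directions there, with 3 of 4 genes called where 40.6% of all genes were. In A549 libraries labelled knockout, PLAUR rose by 1.64 (standard error 0.19, limma adjusted p = 9.61e-04) and PLAU rose too, by 1.03 (standard error 0.26, adjusted p = 0.0255), 2 of 4 where 20.8% of genes were called. PLAT and SERPINE2 had log2 fold changes of -0.36 and 0.50 there (limma adjusted p = 0.507 and 0.395).

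In H2023, PLAU fell from normal culture to oncospheres in both genotypes and no other of the 4 genes passed. It fell by 1.46 in wild type (standard error 0.23, limma adjusted p = 0.0095), where 21.4% of genes were called, and by 2.81 in the libraries labelled knockout (standard error 0.23, adjusted p = 9.59e-04), where 26.9% were. The groups did not overlap in either genotype. PLAUR was lower by a log2 fold change of -0.73 in wild type and -0.69 in the libraries labelled knockout (limma adjusted p = 0.0718 and 0.0765). SERPINE2 differed by -0.99 and -0.69 (limma adjusted p = 0.365 and 0.525) and PLAT by 0.36 and 0.16 (adjusted p = 0.390 and 0.717). All genes had a median of -0.18 in the wild-type contrast and -0.12 in the other, and with libraries centred on their medians PLAU fell by 1.21 (adjusted p = 0.0168) and by 2.66 (adjusted p = 4.61e-04). The mitochondrial share of TPM, higher in oncospheres, moved with this contrast. With mitochondrially encoded genes taken out of TPM, each of the culture results kept its side of the threshold.

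The third question was how wild-type H2023 differed from wild-type A549, again across separate tables. In normal culture SERPINE2 was higher in H2023 by 1.60 on the log2 scale (standard error 0.40, limma adjusted p = 0.0366) and PLAT was lower, with -1.60 (standard error 0.32, adjusted p = 0.0198), so that 2 of 4 genes passed where 34.3% of genes did. PLAU and PLAUR differed by -0.76 and -0.13 (limma adjusted p = 0.0631 and 0.659). All genes had a median of 0.12 here, and with libraries centred PLAU differed by -0.97 (adjusted p = 0.0219, with a range of 0.0219 to 0.0665 over the alternatives that kept all libraries). In oncospheres PLAUR was lower in H2023 by a log2 fold change of -1.88 (standard error 0.21, limma adjusted p = 0.00591) and PLAU by -1.21 (standard error 0.23, adjusted p = 0.0175), 2 of 4 where 33.7% of genes were called. SERPINE2 and PLAT differed by 0.43 and -0.07 (limma adjusted p = 0.653 and 0.767).

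In the order of group means, PLAU was highest in H2023 normal culture labelled knockout, at 167 ± 19.2 TPM (SD, n = 2), followed by wild-type A549 normal culture at 150.3 ± 50.6 and A549 oncospheres labelled knockout at 121.6 ± 19.6 TPM. Those 3 groups overlapped their neighbours. A gap without overlap separated them from wild-type H2023 normal culture at 85.6 ± 5.98 TPM, and both H2023 oncosphere groups came last, at 31.1 ± 9.61 and 23.1 ± 5.01 TPM. PLAUR was highest in A549 oncospheres labelled knockout, at 187.6 ± 22.9 TPM (SD, n = 2), then in wild-type A549 oncospheres at 79.5 ± 5.69 and in A549 normal culture labelled knockout at 60.4 ± 15.9 TPM, each clear of the next group. Its other groups lay between 21.2 ± 5.68 and 38.9 ± 5.25 TPM, where the only gap without overlap was between normal culture and oncospheres of H2023.

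The 8 group means of SERPINE2 ran from 36.0 ± 15.7 TPM (SD, n = 2) in wild-type A549 normal culture to 113 ± 22.8 TPM in A549 oncospheres labelled knockout, and each group overlapped its neighbour in that order. Those of PLAT ran from 0.155 ± 0.00707 TPM (SD, n = 2) in wild-type H2023 normal culture to 3.38 ± 1.51 TPM in A549 normal culture labelled knockout. The 3 highest PLAT groups were all A549, and the 3 lowest were all wild type.

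PLAU and SERPINE2 TPM were also set in ratio within each library, since TPM is scaled by transcript length. Urokinase mRNA in A549 normal culture exceeded its inhibitor 3.95-fold and 4.60-fold in wild type, and the ratio was 0.651 and 0.847 in the libraries labelled knockout. In A549 oncospheres the ratio was 1.58 and 2.16 in wild type and 0.834 and 1.40 in the libraries labelled knockout. H2023 normal culture had the reverse order, with 1.05 and 0.625 in wild type and 2.16 and 1.97 in the libraries labelled knockout. In each of these comparisons the groups did not overlap, which is a description of 2 libraries a group and was not tested. In H2023 oncospheres the ratio was 0.972 and 0.345 in wild type and 0.583 and 0.363 in the libraries labelled knockout, which overlapped.

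The ratio of PLAU to its receptor PLAUR was 4.36 and 3.25 in wild-type A549 normal culture and 1.01 and 0.960 in the libraries labelled knockout. In A549 oncospheres the receptor exceeded urokinase in all 4 libraries, with ratios of 0.944 and 0.861 in wild type and 0.628 and 0.664 in the libraries labelled knockout. In H2023 normal culture the ratio was 2.81 and 2.10 in wild type and 4.20 and 4.86 in the libraries labelled knockout, the highest with those of wild-type A549 normal culture. In H2023 oncospheres it was 1.42 and 1.505 in wild type and 0.935 and 1.10 in the libraries labelled knockout. Urokinase exceeded the tissue-type activator in every library, by 11.99-fold to 599-fold. With 2 libraries a group, no test was made of a ratio on its own.

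**Figure D3:**
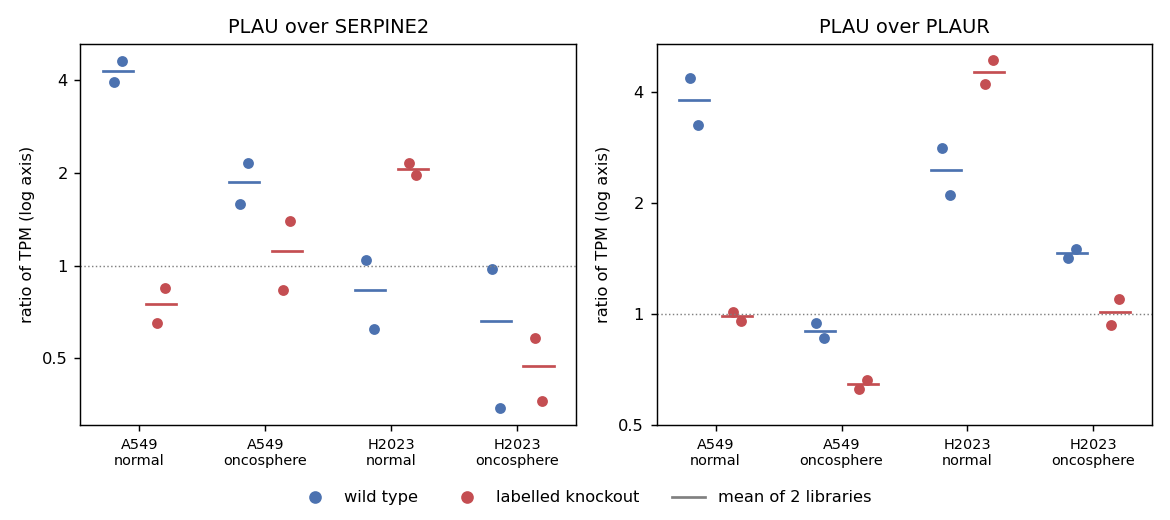
Ratio of TPM of PLAU over SERPINE2 (left) and PLAU over PLAUR (right) in each library on log axes, by line and culture, with blue for wild type, red for libraries labelled knockout and a line at the mean of 2 libraries. The dotted line marks equal TPM, and the A549 normal culture libraries labelled knockout lie near or below it while their wild-type libraries lie above 3.

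The 4 genes did not rank the 16 libraries alike. The correlation of log2(TPM + 1) was highest between PLAU and PLAUR, with a Pearson r of 0.513 and a Spearman rho of 0.447, and lowest between PLAT and SERPINE2, with an r of 0.140. The libraries share lines, clones and cultures, so these values are descriptions. Over the same 16 libraries, the genes most like PLAU among 6632 variable genes averaging at least 5 TPM were SLC35F2 (r = 0.951), DCP2 (0.900), which encodes an mRNA-decapping enzyme, and ME2 (0.900), a mitochondrial malic enzyme. For PLAUR they were IL4R (r = 0.942), the interleukin-4 receptor chain, CASK (0.941), a scaffold protein, and NPAS2 (0.939), a circadian transcription factor. PLAT was most like IDS (r = 0.838), a lysosomal sulfatase, KCNMA1 (0.835), a potassium channel, and FBXO22 (0.814). SERPINE2 was most like SLC20A1 (r = 0.814), a phosphate transporter, CITED4 (0.795) and NPTXR (0.782).

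The other genes of the system were taken from 6 lists of 39 genes, of which 32 were measured and 7 not analysed here. Between libraries labelled knockout and wild type, limma called 8 of the 32 higher and 3 lower in A549 normal culture, 5 higher and 6 lower in A549 oncospheres, and none in either H2023 culture. Of all genes, 4.54% were called higher and 6.28% lower in A549 normal culture, and 6.04% and 7.2% in A549 oncospheres. The authors' deposited tables called 14 higher and 4 lower of 27 tested in A549 normal culture, 12 and 8 of 32 in A549 oncospheres, 3 and 3 of 28 in H2023 normal culture, and 3 and 1 of 30 in H2023 oncospheres. Of all genes they tested, those tables called 22.1% in A549 normal culture (11.2% higher, 10.9% lower) and 20.7% in A549 oncospheres (9.29% higher, 11.4% lower). In H2023 they called 10.8% in normal culture (3.84% higher, 6.97% lower) and 5.07% in oncospheres (2.22% higher, 2.85% lower). The lists' median log2 fold change was 0.21, 0.25, 0.05 and 0.11 in these comparisons, beside the medians of all genes given above.

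On log2(TPM + 1), the integrins and other partners of the urokinase receptor included the largest shifts of the 32 genes in A549. In the authors' deposited table for A549 oncospheres, CPB2 (-3.97) and ST14 (-3.86) shifted more than FPR1 (3.52) and ITGB3 (3.38). Of 9 partners and relatives of PLAUR, limma called 3 higher and 0 lower in each A549 culture. ITGB3, the integrin beta chain that pairs with ITGAV to bind vitronectin, was at 0.67 and 0.62 TPM in wild-type A549 normal culture and at 26.58 and 13.26 TPM with the knockout label. It rose by 3.59 on the log2 scale (standard error 0.34, limma adjusted p = 0.0102). ITGAV rose by 1.31 and ITGA5, a chain of the fibronectin receptor, by 1.37 in the same comparison (limma adjusted p = 0.0179 and 0.0127). In A549 oncospheres FPR1, a formyl peptide receptor that interacts with PLAUR, rose by 2.52, ITGB5 by 1.09 and ITGAV by 0.83 (limma adjusted p = 0.0372, 0.00969 and 0.0187). ITGB3 was at 0.37 and 2.05 against 17.45 and 5.96 TPM there, with a log2 fold change of 2.47 (limma adjusted p = 0.0528).

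In H2023 the authors' deposited tables called only ITGAV and VTN of this group, both lower, and limma called neither. ITGAV had risen in both A549 cultures. ITGB3 stayed between 0.11 and 0.73 TPM, and FPR1 between 0 and 0.12 TPM, in all 8 H2023 libraries. The effect on ITGB3 in normal culture differed between the lines by -3.77 (adjusted p = 1.17e-07) and that on ITGAV by -2.23 (adjusted p = 1.25e-27), from the authors' deposited fold changes. ITGAV itself fell by 0.75 in H2023 normal culture in the authors' deposited table (adjusted p = 3.63e-07), with a limma log2 fold change of -0.73 (adjusted p = 0.157). VTN, which encodes the PLAUR and integrin ligand vitronectin, fell by 3.17 and 4.63 on the log2 scale in the authors' deposited tables for H2023 normal culture and oncospheres (adjusted p = 1.21e-09 and 9.85e-06). It was at 6.38 and 16.34 against 1.59 and 1.08 TPM in normal culture and at 1.86 and 14.29 against 0.27 and 0.3 TPM in oncospheres, and limma's adjusted p-values were 0.171 and 0.327.

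Of 6 endocytic and clearance receptors, limma called 3 higher and 1 lower in A549 normal culture and 2 in each direction in A549 oncospheres. LRP1 and VLDLR, which take up serpin complexes of the activators, changed in opposite directions in the A549 cultures. LRP1 was at 3.07 and 4.39 TPM in wild-type A549 normal culture and 16.34 and 20.38 TPM with the knockout label, a rise of 2.04 (standard error 0.22, limma adjusted p = 0.0123). In A549 oncospheres it was at 22.34 and 26.77 TPM in the wild-type libraries and 14.22 and 11.15 TPM in those labelled knockout, and it fell by 0.90 (standard error 0.18, adjusted p = 0.0321). VLDLR rose by 0.62 in normal culture and fell by 1.47 in oncospheres (limma adjusted p = 0.0451 and 0.0152). The difference between the cultures was -3.16 for LRP1 (adjusted p = 3.13e-26) and -2.003 for VLDLR (adjusted p = 1.66e-10), from the authors' deposited fold changes.

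MRC2, a collagen-binding endocytic receptor also known as a partner of the urokinase receptor, rose in both A549 cultures, by 1.66 and 1.48 (limma adjusted p = 0.00518 and 0.0243), and SORL1 fell by 1.80 in normal culture (adjusted p = 0.0164). IGF2R, the receptor for mannose 6-phosphate that also binds PLAUR, rose by 0.78 in oncospheres (limma adjusted p = 0.0359). In H2023, LRP1 was the 1 receptor of this group called in the authors' deposited tables, in oncospheres, at 27.55 and 23.07 TPM in wild type, below the 56.59 and 54.32 TPM of the libraries labelled knockout (adjusted p = 2.79e-06). Limma's adjusted p for it was 0.208.

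Of 5 other serpins, SERPINB8 fell by 1.35 and SERPINB6 rose by 0.54 in A549 normal culture, and SERPINF2, the plasmin inhibitor, fell by 1.05 in A549 oncospheres (limma adjusted p = 0.0207, 0.0280 and 0.0246). SERPINF2 was low, at 1.56 and 2.12 TPM in the wild-type libraries and 0.49 and 0.25 TPM in those labelled knockout. PLG, plasminogen itself, is made mainly by the liver, and was at most 7.38 TPM here. It fell by 1.32 in A549 oncospheres, from 7.38 and 4.5 to 1.58 and 1.88 TPM (limma adjusted p = 0.0345). Of the docking proteins for plasminogen, ENO1 and ANXA2 rose in the authors' deposited tables in both A549 cultures, with adjusted p-values from 7.55e-04 to 0.0326. S100A10 rose in A549 normal culture in the authors' deposited table (adjusted p = 0.0408), and ANXA2 in H2023 normal culture too (adjusted p = 0.0328).

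Among the proteases that activate pro-urokinase and their inhibitors, CTSB, cathepsin B, rose by 0.75 in A549 normal culture (limma adjusted p = 0.0480). In the authors' deposited tables CTSB rose and ST14, matriptase, fell in A549 oncospheres (adjusted p = 5.94e-04 and 2.35e-04), where limma called 0 of the 4 measured genes of this list. ST14 was low, at 2.08 and 0.85 TPM in the wild-type libraries and 0.18 and 0 TPM in those labelled knockout. In H2023 SPINT2, a Kunitz-type inhibitor of such proteases, rose in the authors' deposited tables in both cultures (adjusted p = 1.86e-06 and 0.0218), and SPINT1 fell in normal culture (adjusted p = 0.0096). SPINT2 was at 277.15 and 262.05 against 447.56 and 449.03 TPM in normal culture and at 483.79 and 477.93 against 777.2 and 743.56 TPM in oncospheres.

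THBD, thrombomodulin, which turns thrombin towards anticoagulant substrates, differed in sign between the lines. It fell by 1.24 in A549 normal culture and by 1.89 in A549 oncospheres (limma adjusted p = 0.0312 and 0.00581), and rose in both H2023 cultures in the authors' deposited tables (adjusted p = 5.59e-06 and 2.78e-04). The difference between the lines was 2.49 in normal culture (adjusted p = 4.40e-12) and 3.90 in oncospheres (adjusted p = 7.07e-20), from the authors' deposited fold changes. CPB2, a carboxypeptidase that slows fibrinolysis, fell by 1.90 in A549 oncospheres (limma adjusted p = 0.00575), from 3.37 and 3.43 to 0.32 and 0.05 TPM. F12, coagulation factor XII, fell in A549 normal culture in the authors' deposited table (adjusted p = 0.0410).

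**Figure D4:**
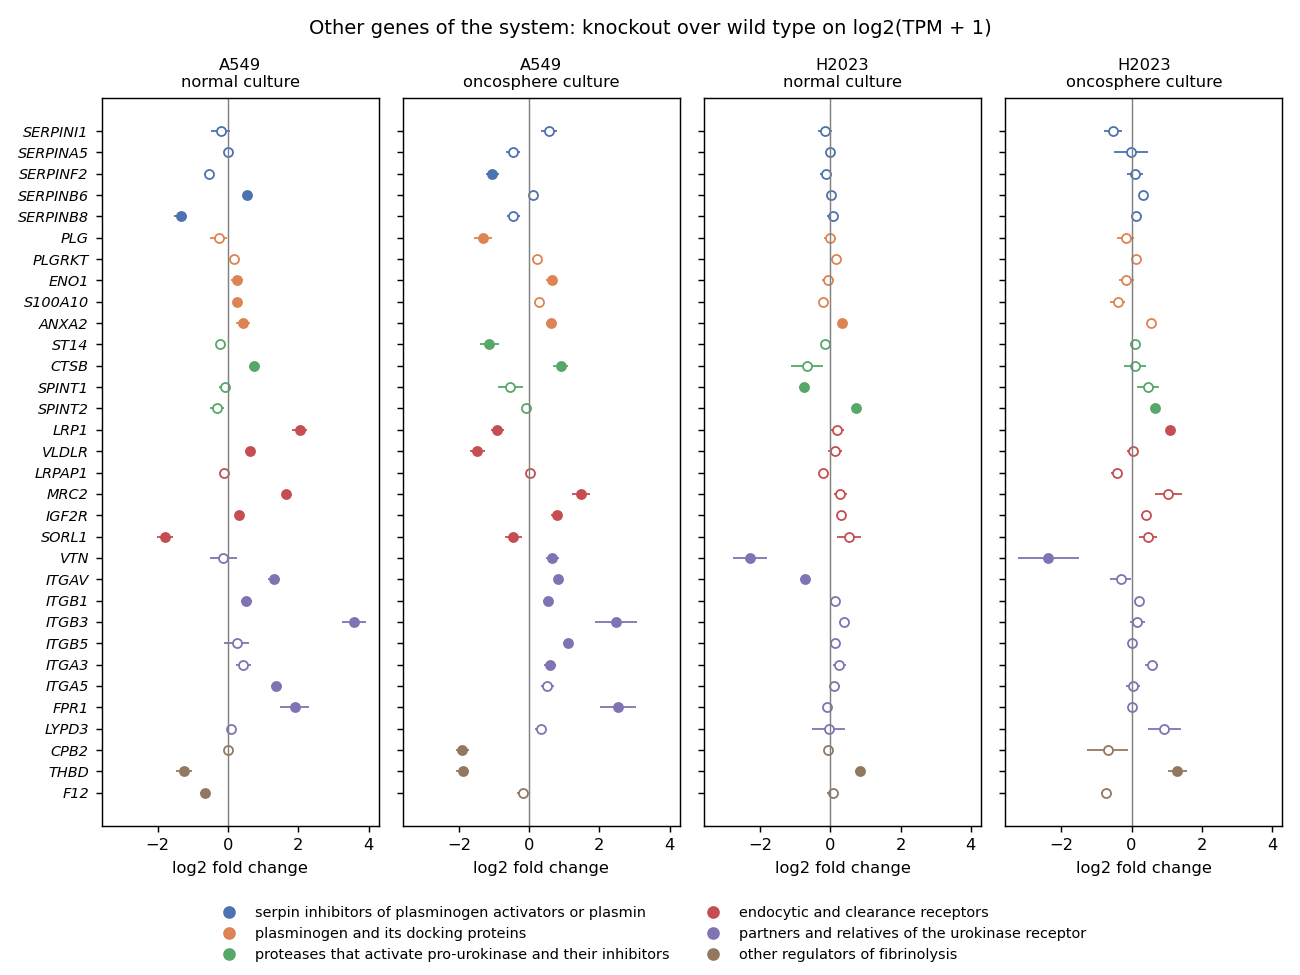
Log2 fold change on log2(TPM + 1) of libraries labelled knockout over wild type for 32 other genes of the system, by line and culture, with bars of 1 standard error from limma and colours for the 6 lists. Filled points have an adjusted p under 0.05 in the authors' deposited tables, 18 and 20 genes in the A549 panels and 6 and 4 in the H2023 panels.

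Across cultures, limma called 14 of the 32 genes higher and 2 lower in wild-type A549 oncospheres, where 19% of all genes were called higher and 21.6% lower. In the A549 libraries labelled knockout it called 10 higher and 1 lower, beside 10.9% and 9.87% of all genes. In wild-type H2023, 3 were higher and 11 lower in oncospheres, and all genes leaned the same way, with 3.96% higher and 17.4% lower. In H2023 labelled knockout the counts were 4 and 7, beside 7.68% and 19.2%. With libraries centred on their medians they became 6 and 5 in wild type (7.98% and 6.91% of all genes) and 4 and 4 in those labelled knockout (11.8% and 12.7%). Of the 5 genes for plasminogen and its docking proteins, 4 were called lower in H2023 oncospheres in each genotype, but 1 in wild type and 2 with the knockout label once libraries were centred.

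Between the wild-type lines in normal culture, 11 of the 32 were higher and 6 lower in H2023, beside 22% and 12.4% of all genes. Centring gave 8 and 8, beside 14.9% and 20.3%. In oncospheres 6 were higher and 13 lower, where 15.8% and 17.8% of all genes were. Centring gave 6 and 15, beside 2989 and 3441 of all 18227 genes. The median log2 fold change of the 32 genes between the lines in oncospheres was -0.67, beside -0.01 over all genes.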

How the data were processed

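Each of the 4 deposited tables holds 1 line and culture with 4 libraries, 18361 rows and, after the first row of each repeated identifier was kept, 18227 genes. The authors' values per library are TPM, which keeps no depth, so the precision of a single value is unknown; the library sums were 991838 to 998125. The authors also deposited a mean normalized count, a log2 fold change with its standard error, and raw and adjusted p-values (p-value columns of the authors), in columns named as DESeq2 names them, per the file headers. HISAT2, StringTie and GRCh38 are named in the submitters' processing notes. Stranded TruSeq mRNA libraries were made from total RNA, per the labels' protocols. Limma 3.58.1 in R 4.3.3 was run with its trend option on log2(TPM + 1), a pseudocount of 1 TPM, on all genes, two-sided, over the 4 libraries of a comparison or the 8 of a line for cultures, and was tested on simulated data. Differences of effects were the differences of the authors' deposited log2 fold changes divided by their combined standard error, against a normal distribution, adjusted over 18227 genes. The 4 genes, the lists and the tests were chosen with earlier results of these data known. All 4 genes are named in each comparison, of each list up to 4 called genes with the largest limma fold change, and for likeness the 3 genes of highest r among those with a mean of at least 5 TPM and a range of group means of at least 1 on the log2 scale; other list genes named were chosen after their values were seen. Alternatives were a pseudocount of 0.1 TPM, a minimum mean of 1 TPM, TPM without mitochondrially encoded genes, centred libraries, a replicate block, another pool for the spread, the authors' test and leaving out each library. Gene positions are from GENCODE on GRCh38.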

Additional observations from a re-analysis of the deposited data

Results flagged for a closer look

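The difference between libraries labelled knockout and wild type was itself different between groups for PLAU in all 4 contrasts tested and for PLAUR in 1, on the log2 fold changes of the authors' deposited tables. The 4 contrasts of a gene share the same 4 fold changes and are not independent of each other. For PLAU it was 1.98 higher in A549 oncospheres than in A549 normal culture, and -1.51 for the same contrast of cultures in H2023. Between the lines, H2023 minus A549, it was 2.22 in normal culture and -1.27 in oncospheres. For PLAUR the difference between the lines in oncospheres was -1.20. The other 11 differences of the 4 genes did not pass the test. No group has enough libraries to look for a single library apart from the rest.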

How the results depend on the processing

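The pseudocount of 0.1 TPM changed none of the 40 calls for the 4 genes. Other alternatives that kept all libraries moved calls near the threshold. PLAU in A549 normal culture passed with a minimum mean of 1 TPM (-1.30), without mitochondrially encoded genes (-1.27), with centred libraries (-1.26), with the spread of 8 libraries (-1.30) and in the authors' deposited table (-1.26). PLAU in H2023 normal culture passed with the minimum mean (0.95), centring (0.96) and the authors' table (0.96). Between the lines in normal culture, PLAU passed with the minimum mean (-0.76), without mitochondrially encoded genes (-0.80) and with centring (-0.97). PLAUR between the H2023 cultures passed with the minimum mean in both genotypes (-0.73 and -0.69) and, labelled knockout, with the spread of 4 libraries (-0.69). In A549 oncospheres PLAT (1.09) and PLAU (0.75) missed the threshold with the spread of 8 libraries, as did PLAU between the wild-type H2023 cultures with the spread of 4 (-1.46). The authors' deposited tables called PLAUR in A549 normal culture (0.66) and PLAT in H2023 normal culture (2.34), and gave PLAUR in H2023 oncospheres the other sign (-0.0042, not called). As an interaction in limma, the PLAU differences between the H2023 cultures (-1.35) and between lines in oncospheres (-1.14) were not called and that of PLAUR between the H2023 cultures was 0.049, with the other sign. The cause of these changes was not tested.

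Libraries of a group carry numbers shared across groups, and nothing says that a number marks a common batch. The correlation of the differences between replicates ran from -0.025 to 0.461 over 10 comparisons, so pairing was not established. With the replicate number as a block, PLAUR (0.60), PLAU (-1.30) and SERPINE2 (1.18) passed in A549 normal culture and PLAUR passed between the H2023 cultures (-0.73 and -0.69). Of all 18227 genes, the block fit called 2109 in A549 normal culture, against 1971 without the block. Between the H2023 cultures it called 4270 in wild type and 5401 with the knockout label, against 3901 and 4895 without the block. SERPINE2 between the lines in normal culture (1.60) did not pass with the block. As limma interactions, the PLAU difference between the H2023 cultures (-1.35) and that of PLAUR (0.049) were not called with or without the block. Differences of effects were compared with the test on the authors' deposited fold changes. Against that test, PLAU differed by its call and PLAUR, not called there either, by its sign alone. The other 48 of 56 results kept their call.

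Leaving out 1 library at a time gave these lowest and highest log2 values. In A549 oncospheres, where these fits called at most 38 of all genes and none of the 4, they were 1.10 and 1.35 for PLAUR, 0.95 and 1.23 for PLAT, 0.58 and 0.91 for PLAU, and 1.29 and 1.72 for SERPINE2. PLAT in A549 normal culture ran from -0.18 to 0.73. In H2023, PLAUR ran from -0.21 to 0.33 and SERPINE2 from -0.82 to 0.055 in normal culture, and PLAUR from -0.15 to 0.38 and SERPINE2 from -1.13 to 0.97 in oncospheres. Between cultures they were -1.63 and -0.72 for PLAT, -1.37 and -0.67 for PLAU and -0.27 and 0.62 for SERPINE2 in wild-type A549, 0.73 and 1.34 for PLAU in A549 labelled knockout, -1.78 and -1.15 for PLAU and -2.04 and 0.051 for SERPINE2 in wild-type H2023, and -0.24 and 0.56 for PLAT in H2023 labelled knockout. Between lines they were -0.41 and 0.14 for PLAUR, -2.06 and -1.15 for PLAT and 1.15 and 2.04 for SERPINE2 in normal culture. In oncospheres they were -2.15 and -1.62 for PLAUR, -0.20 and 0.073 for PLAT, -1.52 and -0.90 for PLAU, and -0.61 and 1.48 for SERPINE2. With 1 library left in a group, its spread is assumed to be that of the others. PLAT averaged under 1 TPM in some fits and then has no value under the minimum mean. TPM holds no depth, so no floor could be set.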
